A study of Mus musculus with 2 samples.

Results

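A set of 8 RAS-MAPK genes whose human counterparts are altered in Noonan syndrome and related heart disease was followed in embryonic mouse heart: Ptpn11, Sos1, Hras, Nras, Nf1, Braf, Map2k1 and Map2k2. They were taken by name and not by a limit on any measured value, though with earlier results of these data known. They make up 8 of the 42462 annotated genes with values. Together they have 38 annotated transcripts among 101510. Total RNA was sequenced in 2 libraries of a single group, hearts of healthy embryos of the mouse strain B6NCrl at embryonic day 16.5, with males and females pooled. The pool of replicate 2 came from 41 embryos, and the size of the pool of replicate 1 is not in the labels. Both libraries carry the same donor identifier, so the spread between them may be partly technical. No mutant, treatment or second age is part of the design, so the values describe levels in normal tissue.

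The RAS-MAPK pathway carries signals from growth factor receptors to the nucleus. SHP2, the phosphatase encoded by Ptpn11, and the exchange factor SOS1 promote the loading of RAS proteins with GTP, and neurofibromin, encoded by Nf1, returns RAS to its inactive GDP-bound form. GTP-bound RAS recruits RAF kinases such as BRAF, which phosphorylate the kinases MEK1 and MEK2 (Map2k1 and Map2k2), and these activate the ERK kinases. In humans, germline variants that raise the output of this pathway cause the RASopathies. Noonan syndrome is one of them, with pulmonary valve stenosis and hypertrophic cardiomyopathy among the heart findings.

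The libraries held 37160624 estimated counts in replicate 1 and 40360242 in replicate 2. Heart muscle genes marked the tissue, with 6 of 6 marker genes above 1 TPM (a relative transcript abundance corrected for transcript length) and sums of 33456 and 33354 TPM in replicates 1 and 2. Single heart muscle markers moved in opposite directions, with Nppa at 3701 and 5284 TPM, Myh6 at 818 and 959, and Myl2 at 8176 and 6344. Of the 6 markers, 0 lay more than 1.5-fold apart. Markers of neighbouring tissues also differed between the pools. Lung epithelium markers summed to 934 and 102 TPM, thymus markers to 79.7 and 208 TPM, and skeletal muscle markers to 9.61 and 26.3 TPM. Red blood cell markers summed to 32135 and 27236 TPM and liver markers to 19.2 and 29.4 TPM. Among the liver markers only Apoa1 was higher in replicate 2 (4.88 and 16.0 TPM), while Alb had 5.39 and 4.53 TPM and Afp 8.89 and 8.88 TPM. No marker in these lists was at 0 in either library.

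All 8 genes reached 1 TPM in both libraries, as did 59.1% of the 21474 protein-coding genes. Their levels ran from 1.75 TPM for Sos1 to 119 TPM for Map2k2. Both MEK genes and both RAS genes stood above 15.3 TPM, the median of the 12987 protein-coding genes whose mean was 1 TPM or more, called expressed genes from here on. Ptpn11 lay just under that median, and Braf, Nf1 and Sos1 lay lower. The tissue was measured in bulk, so fewer cells of a type and less RNA per cell cannot be told apart.

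**Figure D1:**
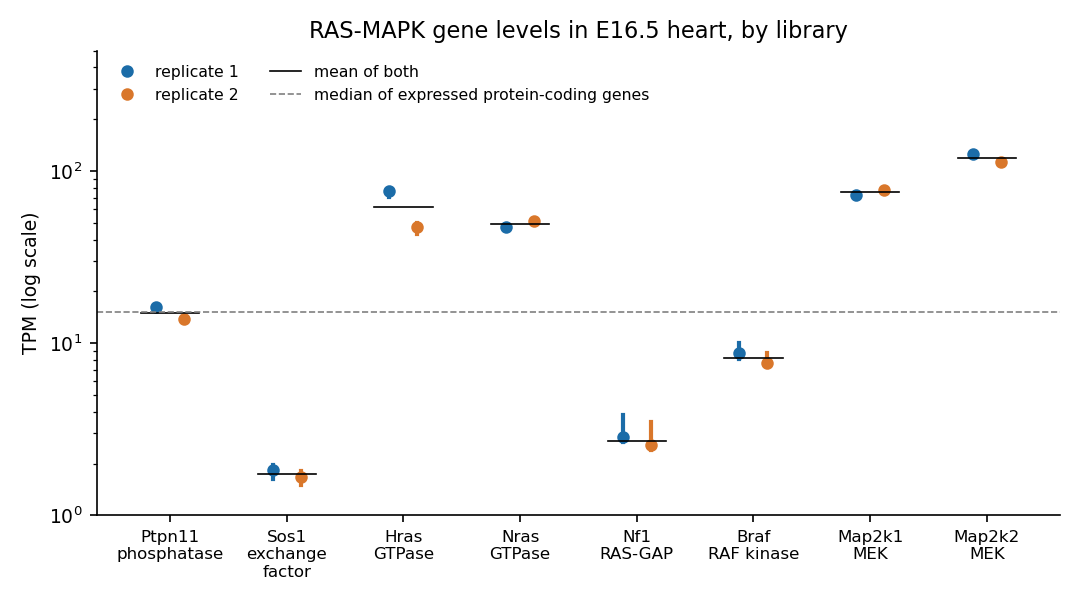
TPM of the 8 genes on a log scale, with 1 point per library, a vertical bar for the authors' credibility interval, a black line for the mean and a dashed line for the median of expressed protein-coding genes. Sos1 and Nf1 are lowest, Map2k2 is highest, and the points of Hras are the farthest apart, at 76.6 and 47.1 TPM.

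In descending order of mean TPM the genes were Map2k2, Map2k1, Hras, Nras, Ptpn11, Braf, Nf1 and Sos1. Neighbours were taken to differ where the direction was shared by the libraries and the authors' credibility intervals, which cover counting and read assignment only, were apart in each. Of the 7 neighbouring pairs, 5 differed by this rule. The exceptions were Map2k1 and Hras, with log2 ratios of -0.08 and 0.73 in replicates 1 and 2, and Hras and Nras, with 0.69 and -0.12. The intervals overlapped for Map2k1 and Hras in replicate 1 and for Hras and Nras in replicate 2, so the place of Hras was not resolved. This order holds over all transcripts. On coding transcripts alone Nf1, at 1.70 and 1.40 TPM, lay below Sos1, at 1.83 and 1.67 TPM.

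Ptpn11 (ENSMUSG00000043733.10; GRCm38 chromosome 5, 121130533 to 121191397, minus strand) had 16.2 TPM in replicate 1 and 13.8 TPM in replicate 2, a mean of 15.03 ± 1.70 (SD, n = 2). The libraries held 2392 and 2262 estimated counts of it. This phosphatase gene, the one most often altered in human Noonan syndrome, stood near the middle of the expressed genes, above 49.7% of them. Its relative Ptpn6 encodes SHP1, which is best known from blood cells. Ptpn6 had a mean of 18.6 TPM ± 9.06, and the pair was not called different. The log2 ratio of Ptpn11 over Ptpn6 was 0.41 in replicate 1 and -0.86 in replicate 2, so the direction turned between the libraries. The summed thymus markers were also higher in replicate 2, at 208 TPM against 79.7 TPM, and their part in this result was not tested.

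Nearly all Ptpn11 signal lay on coding transcripts, 99.2% of its TPM on average. The main transcripts differ at a splice site within the coding sequence. Ptpn11-202, without the 12 nt between the sites, held 77.9% and 72.0% of the gene's TPM in replicates 1 and 2, and Ptpn11-201, with them, held 21.3% and 27.3%. Of the coding transcripts spanning the site, 24.5% ± 4.25 carried the 12 nt (21.4% and 27.5%). The form with the 12 nt was the minor one in both libraries. In GENCODE M21 the transcripts also differ in noncoding length, 3744 nt in Ptpn11-201 and 3820 nt in Ptpn11-202. The share is an estimate from whole transcripts, not a count of junction reads. The stretch lies at chr5:121144685-121144696 on the minus strand and its length is a multiple of 3 nt. It is shown because it separates these forms, with the 12 nt in capitals and 12 nt of flanking exon in lower case, from GENCODE M21 transcripts on GRCm38.
Ptpn11-201: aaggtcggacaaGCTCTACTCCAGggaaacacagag

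Sos1 (ENSMUSG00000024241.6; GRCm38 chromosome 17, 80393751 to 80480453, minus strand) was the lowest of the 8 genes. It had 1.83 TPM and 1.67 TPM in replicates 1 and 2, a mean of 1.75 ± 0.113, from 432 and 438 estimated counts. Of the expressed genes, 93.5% had a level at or above it. Its one annotated transcript, Sos1-201, held all of its signal. On coding transcripts alone Nf1, at 1.70 and 1.40 TPM in replicates 1 and 2, was lower than Sos1. Sos2, the second gene of this exchange factor family, had 6.0 TPM ± 0.0566, which was 3.43-fold higher (log2 ratio of Sos1 over Sos2 -1.78 ± 0.11). That direction depended on which transcripts were counted. Only 23.0% and 20.2% of Sos2 TPM lay on coding transcripts, while Sos2-202, annotated as a retained intron, led with 42.8% and 39.8%. On coding transcripts alone the order reversed, to a log2 ratio of 0.44. The coding shares of partner genes were added after their values were seen.

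Hras (ENSMUSG00000025499.13; GRCm38 chromosome 7, 141189105 to 141194005, minus strand) had 76.6 TPM in replicate 1 and 47.1 TPM in replicate 2, a mean of 61.8 ± 20.8, from 2140 and 1420 estimated counts. Nras (ENSMUSG00000027852.10; GRCm38 chromosome 3, 103058285 to 103067914, plus strand) had 47.5 and 51.2 TPM, a mean of 49.3 ± 2.64, from 5454 and 6541 estimated counts. Hras was the higher of the pair in replicate 1, their intervals overlapped in replicate 2, and they were not called different. The mean log2 ratio of Hras over Nras was 0.29 ± 0.57, an SD larger than the ratio itself. The intervals of Hras lay farther apart between the libraries than those of Nras.

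Nras was almost a single-transcript gene, with 99.5% and 99.7% of its TPM on Nras-201. Hras was spread over 7 transcripts. Hras-202, the main coding form, held 75.3% and 73.9%, and Hras-206, annotated as subject to nonsense-mediated decay, held 12.8% and 15.3%. The retained-intron and other transcripts shared the rest, with Hras-205 at 5.32% and 4.35%. Hras-206 is 447 nt long and rested on 91 and 74 estimated counts. By estimated counts, coding transcripts held 84.3% and 84.5% of Hras. Hras has a known alternative exon of 82 nt, called IDX, whose inclusion changes the end of the protein. Among the transcripts counted, 2.91% ± 0.0202 carried it (2.89% and 2.92%). These were Hras-203, with 24 and 19 estimated counts in replicates 1 and 2, and Hras-207, with 30 and 13. Their shares of the gene's TPM moved in opposite directions, to 1.81% from 1.60% and to 0.44% from 0.67%. The small SD therefore does not measure precision. The inclusion share is an estimate from whole transcripts, not a count of junction reads. The exon's length leaves a remainder of 1 nt when divided by 3, so it shifts the reading frame. The exon, at chr7:141191955-141192036 on the minus strand, is shown in capitals because it separates the main product from the minor one, with flanks in lower case from GENCODE M21 transcripts.
Hras-203: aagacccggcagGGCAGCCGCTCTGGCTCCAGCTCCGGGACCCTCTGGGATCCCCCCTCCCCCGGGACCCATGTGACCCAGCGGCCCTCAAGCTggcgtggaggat

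Nf1 (ENSMUSG00000020716.11; GRCm38 chromosome 11, 79339693 to 79581612, plus strand) had 2.84 TPM in replicate 1 and 2.57 TPM in replicate 2, a mean of 2.705 ± 0.191, from 582 and 530 estimated counts. It stood above 12.4% of the expressed genes. The RAS-GAP Rasa1, which also accelerates GTP hydrolysis on RAS, had 30.3 and 26.6 TPM, and exceeded Nf1 by 10.5-fold (log2 ratio of Nf1 over Rasa1 -3.39 ± 0.03). Only 37.9% and 42.2% of Rasa1 TPM lay on coding transcripts. On coding transcripts alone the ratio was -2.88, in the same direction. Of the 8 genes, Nf1 had the smallest share of signal on coding transcripts, 59.9% and 54.3% of TPM. The median over 12646 expressed genes was 98.7%, and Nf1 lay above 9.71% of them. By estimated counts, which are not divided by length, coding transcripts held 89.3% and 87.4% of Nf1. Nf1-207, a processed transcript of 721 nt, held 19.7% and 27.4% of the TPM from 9 and 13 estimated counts.

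Neurofibromin exists in forms with and without a stretch inside its GAP-related domain, encoded by a 63-nt cassette exon often called exon 23a. The form with the insertion is known to stimulate RAS GTP hydrolysis less strongly. Nf1-201, which contains the exon, held 510 and 450 estimated counts, and Nf1-202, which lacks it, was listed at 0 in both libraries. Inclusion was therefore 100% in each by the authors' TPM, and 97.4% and 97.6% by their posterior mean TPM. A count of 0 allows up to 3, or 0.589% and 0.666% of the counts on these transcripts, for counting error only. Nearly all of their length lies outside the exon, and the transcripts also differ in noncoding length, 3394 nt against 757 nt. The share is thus an estimate from whole transcripts, not a count of junction reads. The exon, at chr11:79463233-79463295 on the plus strand, is shown in capitals with its flanks, from GENCODE M21 transcripts.
Nf1-201: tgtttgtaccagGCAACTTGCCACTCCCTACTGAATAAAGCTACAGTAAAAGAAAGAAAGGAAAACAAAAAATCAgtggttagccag

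Braf (ENSMUSG00000002413.11; GRCm38 chromosome 6, 39603237 to 39725463, minus strand) had 8.72 and 7.69 TPM in replicates 1 and 2, a mean of 8.205 ± 0.728, from 1763 and 1788 estimated counts. It stood above 34.2% of the expressed genes. Araf, which encodes a RAF kinase of the same family, had 83.0 and 90.2 TPM and exceeded Braf by 10.6-fold (log2 ratio of Braf over Araf -3.40 ± 0.21). Without length correction the gap was smaller but kept its direction, at a log2 ratio of -1.26. The main Braf transcript overlaps exons of Ndufb2, a gene of respiratory complex I on the opposite strand, by 146 nt. Ndufb2 had 573 TPM ± 29.0, and whether counting used strand is not given in the sources used here, so reads in that overlap cannot be told apart.

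Braf-201 held 72.3% and 75.3% of the gene's TPM and Braf-202 held 17.4% and 17.6%. Braf-201 includes coding exons of 120 nt and 36 nt that Braf-202 lacks, and both lengths are multiples of 3 nt. By TPM the transcripts with these exons made up 80.8% ± 0.294 (80.56% and 80.98%). By estimated counts they made up 94.9% and 95.0%. The transcripts also differ in noncoding sequence (stop codon included), 7316 nt in Braf-201 and 3 nt in Braf-202, so these shares do not separate exon use from the annotated transcript end. The exons lie at chr6:39646725-39646844 and chr6:39648821-39648856 on the minus strand. They are shown in capitals with their flanks because they separate the leading Braf transcripts, from GENCODE M21.
Braf 120-nt exon: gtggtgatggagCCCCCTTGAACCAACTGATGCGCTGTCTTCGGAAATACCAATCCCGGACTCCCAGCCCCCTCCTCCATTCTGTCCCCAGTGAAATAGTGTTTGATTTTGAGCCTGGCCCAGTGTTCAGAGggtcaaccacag
Braf 36-nt exon: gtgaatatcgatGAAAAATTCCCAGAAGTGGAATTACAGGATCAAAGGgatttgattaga

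Map2k1 (ENSMUSG00000004936.8; GRCm38 chromosome 9, 64185770 to 64253631, minus strand) had 72.5 and 78.0 TPM in replicates 1 and 2, a mean of 75.3 ± 3.85, from 4488 and 5318 estimated counts. Map2k2 (ENSMUSG00000035027.13; GRCm38 chromosome 10, 81105915 to 81133975, plus strand) had 126 and 113 TPM, a mean of 119 ± 9.40, from 4927 and 4946 estimated counts. These genes encode MEK1 and MEK2, the kinases directly above ERK, and stood above 86.5% and 91.6% of the expressed genes. Map2k2 exceeded Map2k1 by 1.58-fold (log2 ratio of Map2k1 over Map2k2 -0.66 ± 0.19). Without length correction the genes were about level, at -0.015. Map2k2 held 63.5% and 59.1% of the summed TPM of the pair. Map2k1-201 held 98.8% and 97.8% of Map2k1 and Map2k2-202 held 84.3% and 84.6% of Map2k2. A second Map2k2 transcript, Map2k2-207, held 7.54% and 8.23%.

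**Figure D2:**
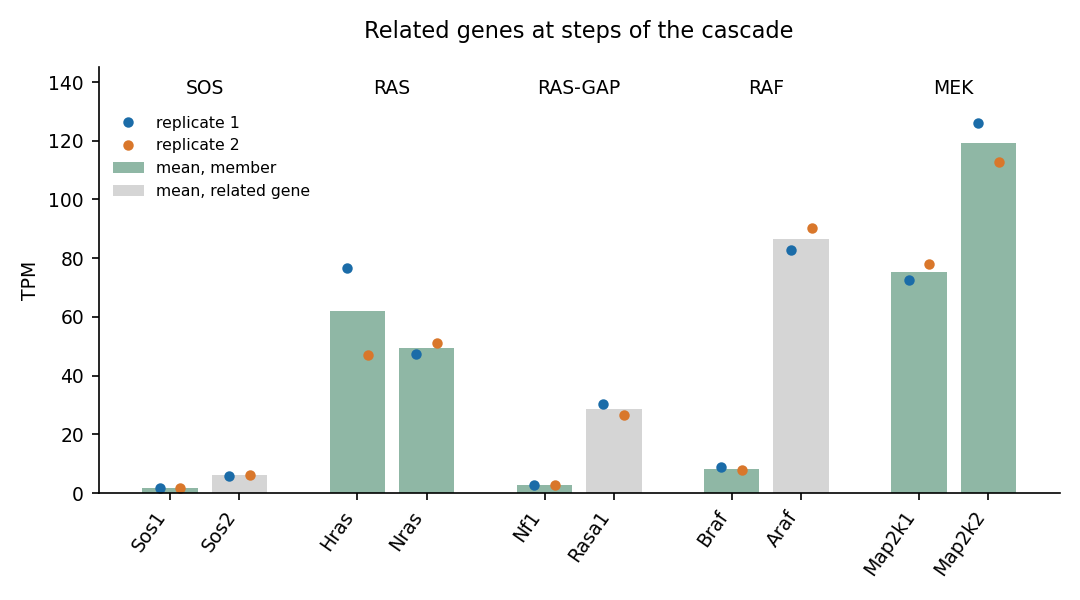
TPM of related genes at steps of the cascade, with bars from 0 for the mean of the libraries (green for the 8 genes, grey for relatives) and 1 point per library. Braf is far below Araf, Nf1 far below Rasa1 and Sos1 below Sos2 (the reverse on coding transcripts alone), while the points of Hras and Nras overlap.

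Of the 6 pairs compared, 4 were called different and 2 were not, the latter being Hras and Nras, and Ptpn11 and Ptpn6. Of the 4, Sos1 and Sos2 had a log2 ratio of -1.78 over all transcripts, which turned to 0.44 on coding transcripts alone. No ratio was tested, since the smallest p that an exact two-sided sign-flip test of 2 libraries allows is 0.5. Estimated counts, which are not corrected for transcript length, gave other ratios: Nras then exceeded Hras by 3.43-fold, Ptpn11 exceeded Ptpn6 by 2.31-fold, Rasa1 exceeded Nf1 by 3.07-fold, and Sos1 and Sos2 were within 1.05-fold.

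**Figure D3:**
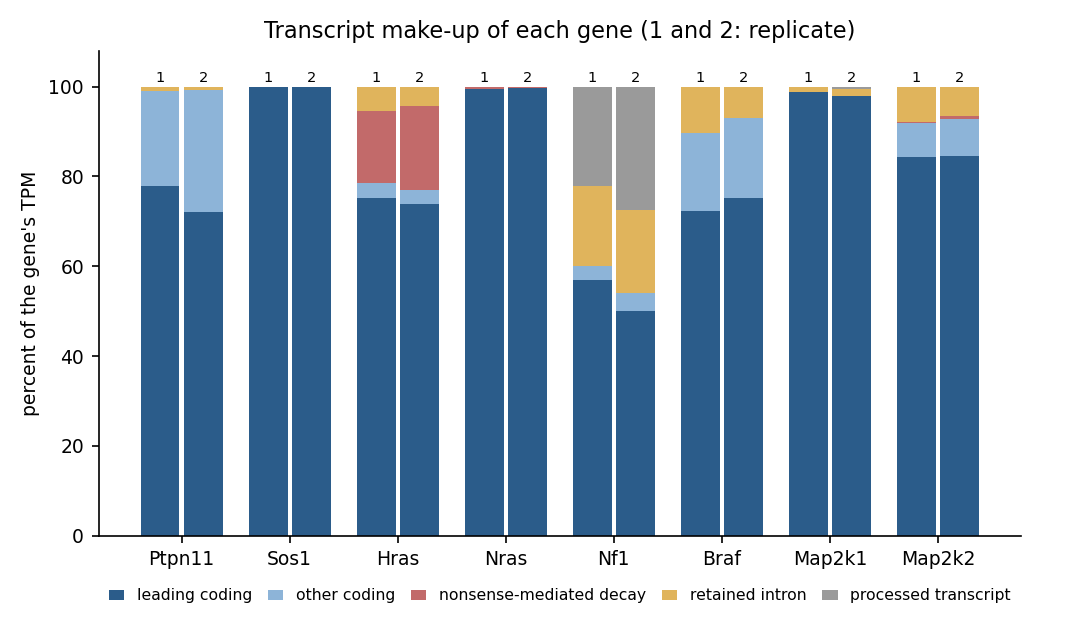
Percent of each gene's TPM on its leading coding transcript, other coding transcripts, and nonsense-mediated decay, retained-intron and processed transcripts, with 1 stacked bar per library (1 and 2). Sos1, Nras, Ptpn11 and Map2k1 are almost wholly coding, while Hras and Nf1 carry the largest noncoding shares.

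Across the 8 genes, the 38 transcripts comprised 17 protein-coding, 12 retained-intron, 5 processed and 4 nonsense-mediated decay transcripts. The transcript with the highest mean share was protein-coding for 8 of 8 genes. It held at least 70% of the TPM in both libraries for 7 of them, and the exception was Nf1, where Nf1-201 held 56.9% and 49.96%. The mean share on coding transcripts was 100% for Sos1, 99.6% for Nras, 99.2% for Ptpn11, 98.3% for Map2k1, 92.3% for Map2k2, 91.4% for Braf, 77.8% for Hras and 57.1% for Nf1. Hras and Nf1 lay under 83.3%, the 25th percentile of expressed genes.

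Between the libraries, 1 of the 8 genes lay more than 1.5-fold apart, against 7.38% of expressed genes (3.51% higher in replicate 1 and 3.87% higher in replicate 2). It was Hras, lower in replicate 2 by a log2 ratio of -0.70, or 1.62-fold with 0.1 TPM added to each value. This difference was larger than that of 94.7% of expressed genes. The authors' intervals of Hras, 70.9 to 79.8 TPM and 43.3 to 49.7 TPM, were also apart, and 5.50% of expressed genes met both criteria. All 7 Hras transcripts were lower in replicate 2, but they are parts of the same gene total and not separate observations. The log2 ratio of Hras stayed at -0.70 with edgeR's TMM scaling and with DESeq2's size factors. The other log2 ratios of replicate 2 over replicate 1 were -0.23 for Ptpn11, -0.18 for Braf, -0.16 for Map2k2, -0.14 for Nf1, -0.12 for Sos1, 0.10 for Map2k1 and 0.11 for Nras. The median over expressed genes was -0.06, with a robust SD of 0.20, and these 7 genes stayed close to it. The authors' intervals did not overlap between the libraries for 5 of 8 genes (Ptpn11, Hras, Nras, Map2k1 and Map2k2), against 30.0% of expressed genes. Apart from Hras, these genes lay only 1.08-fold (Map2k1 and Nras) to 1.17-fold (Ptpn11) apart. The intervals cover counting and read assignment only, so their separation also depends on how many counts a gene has. Lung epithelium markers were higher in replicate 1, as Hras was, for 5 of 5 genes that averaged 1 TPM or more, and their part in this difference was not tested.

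**Figure D4:**
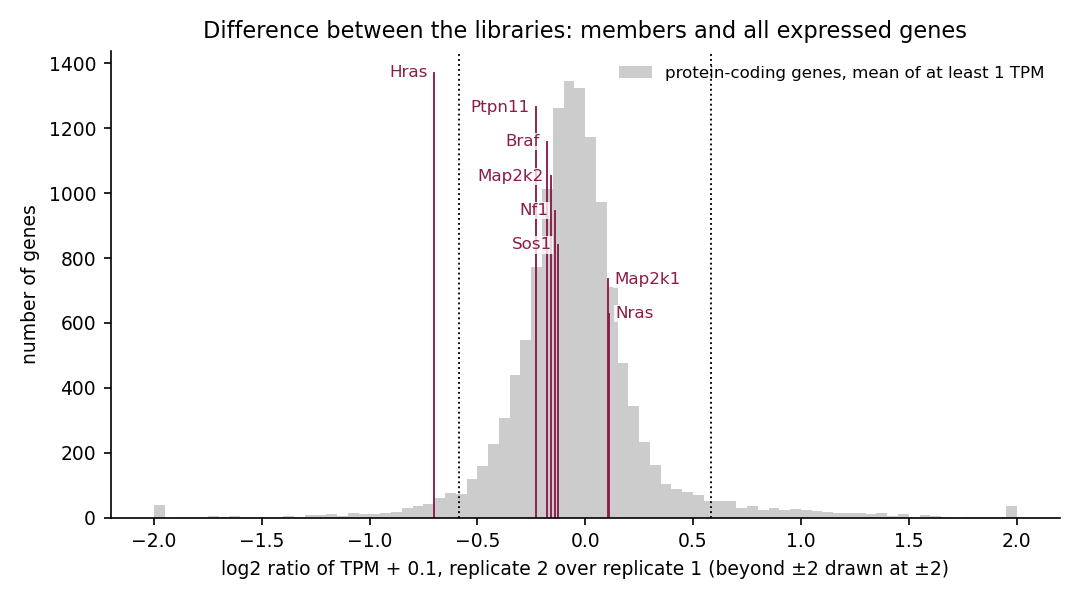
Histogram of log2 ratios of TPM + 0.1, replicate 2 over replicate 1, for expressed protein-coding genes (number of genes per bin, values beyond ±2 drawn at ±2). Red lines mark the 8 genes, with heights that carry no value, and dotted lines the 1.5-fold limits. Hras, at -0.70, is the one outside the limits, and the others lie between -0.23 and 0.11.

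Most of the other listed genes of the pathway were expressed. The lists were chosen with earlier results of these data known, so the shares below are a description only. Of 68 listed genes with values, 60 reached 1 TPM in both libraries, or 88.2%, against 59.1% of protein-coding genes, and their median was 11.9 TPM. All 7 other RAS family GTPases did so (median 45.3 TPM), led by Rap1b (137 TPM ± 4.42), Rras (66.6 ± 8.25) and Rit1 (48.2 ± 1.42). Of the adaptors and exchange factors 12 of 15 did (median 6.0 TPM), led by the receptor adaptors Grb2 (88.6 ± 5.46) and Shc1 (57.1 ± 4.65) and the calcium-responsive exchange factor Rasgrp2 (56.3 ± 1.37). The exchange factors Rasgrf1, Rasgrf2 and Rasgrp4 were under 1 TPM in both libraries. By TPM, Rasgrp2, and not Sos1 or Sos2, had the highest level among the exchange factors listed here. These levels do not show which GTPases each factor acts on in this tissue. By estimated counts Rasgrp3 was above Rasgrp2, at 1411 and 1347 against 978 and 1092 in replicates 1 and 2. The coding share of Rasgrp2 was not examined.

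Among the RAS-GAPs other than Nf1, 6 of 8 passed 1 TPM in each library (median 11.3 TPM). Over all transcripts Rasa1 (28.5 TPM ± 2.64), Dab2ip (24.1 ± 4.09) and Rasa3 (21.8 ± 0.771) were highest, and Rasal1 was under 1 TPM in both. On coding transcripts alone Rasa1 was at 11.4 TPM, and coding levels of Dab2ip and Rasa3 are not given. The Sprouty and SPRED genes, feedback inhibitors of the pathway, reached 1 TPM in 5 of 6 cases (median 4.90 TPM). Spry2 (39.6 ± 2.90) had the highest level, followed by Spry4 (7.24 ± 0.233) and Spry1 (6.17 ± 0.983), and Spred3 was under 1 TPM. Lztr1 (35.6 ± 0.431) and Cul3 (19.3 ± 1.97), which act together in RAS degradation, were both expressed. Of the RAF kinases and their scaffolds 5 of 6 reached 1 TPM (median 53.9 TPM), with the phosphatase subunit gene Ppp1cb (90.2 ± 4.43) and Araf (86.6 ± 5.13) highest, while the scaffold gene Ksr2 was under 1 TPM.

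Below ERK, 6 of 7 phosphatase genes passed 1 TPM in each library (median 8.37 TPM), headed by Dusp6 (31.0 TPM ± 0.290), an ERK-induced ERK phosphatase, Dusp1 (29.0 ± 0.877) and Dusp2 (11.5 ± 4.03). All 15 substrate and response genes did so (median 15.7 TPM), led by the kinase gene Mknk2 (68.8 ± 8.53), the cyclin gene Ccnd1 (40.7 ± 7.19) and the ETS factor gene Etv1 (20.7 ± 1.84). The 15 further genes of human RASopathies all reached 1 TPM (median 28.5 TPM), Ppp1cb being among the highest. Some of these genes also stand in the other lists.

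Of the 61 listed genes that averaged 1 TPM or more, 5 lay more than 1.5-fold apart between the libraries, or 8.20%, close to the 7.38% of all expressed genes. They are named after their values were seen. Higher in replicate 1 were Etv5, a FGF-responsive ETS factor gene (23.9 and 15.7 TPM), and Dusp9 (1.44 and 0.85 TPM). Higher in replicate 2 were Rasgrp1, an exchange factor gene of T cells (1.68 and 3.81 TPM), Rasal3, a RAS-GAP gene of blood cells (4.77 and 10.9 TPM), and Dusp2 (8.68 and 14.4 TPM). Thymus markers were higher in replicate 2 for 6 of 6 marker genes that averaged 1 TPM or more, and lung markers higher in replicate 1 for 5 of 5. Their part in these differences was not tested.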

How the data were processed

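The authors quantified each library separately on mm10 with annotation M4, per the file headers and accompanying notes; no aligner or quantification tool is named there or in the labels. The deposited tables hold estimated counts, which are not normalized, and TPM, computed by the authors over all rows including spike-ins (1.62% and 3.41% of counts in replicates 1 and 2). They also hold posterior mean TPM, credibility intervals of TPM whose level is not stated, and, as deposited, the percent of a gene's TPM on each transcript. RNA longer than 200 nt was used, 10 ng per library, per the labels.

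Identifiers without version were matched to GENCODE M21 on GRCm38, the assembly of mm10: 42462 of 43346 Ensembl gene identifiers matched, and Spry3 did not. Transcript classes, coding regions and sequences came from M21. Of the 38 transcripts followed, 34 were equally long in the quantified and the M21 models. Lengths differed for Hras-203 (845 nt quantified, 1073 nt in M21), Ptpn11-201 (5610 and 5535), Sos1-201 (8919 and 8436) and Nras-201 (4416 and 4470). Exons and sequences given for these transcripts are those of M21 and may differ from the models quantified. Log2 ratios between the libraries used TPM + 0.1, and other scalings used edgeR's TMM and DESeq2's size factors on estimated counts rounded to whole numbers, over 17056 genes that had 10 or more counts in both. Without molecular identifiers, reads are not independent molecules, and intervals and floors cover counting error only. A gene of 1500 nt at 0 counts allows up to 3, or 0.0802 and 0.0722 TPM. The script computing the ratios was tested on simulated data. With 1 group and 2 libraries no p-value was computed.

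The genes, lists and pairs were chosen with earlier results of these data known. Named genes are the 8 genes, both genes of each pair, the 3 highest genes and those under 1 TPM in both libraries of each list, genes overlapping the 8 genes' exons and protein-coding genes within their introns. Single values of some genes of the pairs and lists are not reported here; the counts and medians of the lists include them. Alternative splice sites and the coding shares of partner genes were added after values were seen. Analyses used Python 3.11.15 with pandas 2.3.3 and numpy 2.4.6.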

Additional observations from a re-analysis of the deposited data

How the results depend on the processing

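Of 244 alternative values for 57 results, 213 were classed as the same, 30 moved further and 1 reversed, a word used here for called pairs only. Values classed as the same moved by less than the spread between the libraries or kept their call, apart from some counts of genes at a TPM limit. Signs also turned for pairs not called: Hras over Nras, 0.29 as reported, was -1.78 by estimated counts and -0.071 on coding transcripts, and Ptpn11 over Ptpn6, -0.22 as reported, was 1.21 by estimated counts. Without length correction, on estimated counts, the other log2 ratios were -0.015 for Map2k1 over Map2k2, -1.26 for Braf over Araf, -0.073 for Sos1 over Sos2 and -1.62 for Nf1 over Rasa1. These ratios then follow transcript length as well as abundance. On coding transcripts alone, Sos1 over Sos2 reversed to 0.44, Nf1 over Rasa1 was -2.88 and Nf1 was at 1.55 TPM. Nf1 was then below Sos1, at 1.75 TPM. With TPM rescaled over annotated genes, Nras was at 52.0 and Map2k1 at 79.4 TPM. By posterior means, Nf1 was at 3.075 TPM and Nf1 over Rasa1 at -3.21. The leading transcript then held 73.5% of Hras, 44.2% of Nf1, 69.9% of Braf and 83.4% of Map2k2, and coding transcripts held 98.6% of Ptpn11, 49.6% of Nf1 and 86.7% of Braf. Inclusion by posterior means was 3.47% for the Hras exon, 97.5% for the Nf1 exon and 8.64% for the 3-nt site of Nf1. With all spanning transcripts the Hras exon was at 2.79%. By estimated counts, an alternative chosen after seeing the data, inclusion was 2.85% for the Hras exon, 2.32% for the 3-nt site of Nf1, 95.0% for both Braf exons and 12.9% for the 3-nt site of Map2k2. At a 2-fold limit 0 of the 8 genes lay apart, and at 5 TPM 3 Sprouty and SPRED genes were expressed. Other counts also fell at 5 TPM, though classed as the same. They were 6 of the 8 genes, 10 adaptors and exchange factors, 5 RAS-GAPs and 4 RAF kinases and scaffolds. The others were 5 ERK phosphatases, 11 substrate and response genes and 13 further RASopathy genes. The cause of these shifts was not tested. Leaving out either library leaves every mean within 1 SD by construction, so such values count among the 213 whatever the data. The transcript shares of Sos1, which has 1 annotated transcript, are also fixed and count there. The single-library log2 ratios had opposite signs for Hras over Nras (0.69 without replicate 2, -0.12 without replicate 1) and Ptpn11 over Ptpn6 (0.41 and -0.86), which are the pairs not called different. For ratios between the libraries no library can be left out. No paired analysis was possible because the libraries form a single group. Depth limits Sos1 and Nf1 most, with 432 and 438 counts for Sos1 and 582 and 530 for Nf1.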

Other observations

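Protein-coding genes lie inside introns of Nf1 and Map2k1, on the opposite strand. Within Nf1, Evi2 was at 0.38 and 0.66 TPM in replicates 1 and 2, Evi2b at 0.98 and 1.58, and Evi2a at 1.52 and 2.80. The myelin protein gene Omg, also within Nf1, had 3 and 4 counts, which is about the floor. Within Map2k1, Uchl4 was at 1.79 and 2.73 TPM. Summed thymus markers were higher in replicate 2 as well, at 208 against 79.7 TPM, and their part in these values was not tested. Whether reads were assigned by strand is not given in the sources used here, so intronic reads of the host and reads of the hosted gene cannot be told apart.

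Splice sites 3 nt apart are annotated in the coding sequence of Map2k2 and Nf1. For Map2k2, at chromosome 10, 81121043 to 81121045, the transcript with the 3 nt, Map2k2-207, made up 8.54% ± 0.458 of the TPM of Map2k2-207 and Map2k2-202 together (8.21% and 8.86%), and 12.9% by estimated counts. For Nf1, at chromosome 11, 79565418 to 79565420, Nf1-206 made up 6.58% ± 1.81 of the TPM of the coding transcripts compared (5.29% and 7.86%), and 2.32% by estimated counts. Nf1-206 rests on 10 and 13 estimated counts and is 4133 nt long against 11917 nt for Nf1-201. Both shares are estimates from whole transcripts that also differ in length, not counts of junction reads.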
